A study of Homo sapiens with 4 samples.

Results

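A set of 10 genes of iron transport, storage and oxidation were followed in the human hepatocellular carcinoma line Huh7: HEPH, CP, TF, TFRC, TFR2, SLC40A1, HAMP, HFE, FTH1 and FTL. They were chosen by name, and every probe set that the platform annotation pairs with 1 of these symbols alone was used, which gave 38 probe sets for 9 of the 10 genes. FTH1, the ferritin heavy chain, was not paired with a probe set in this way and was not analysed here. The 9 genes are part of 19775 named genes on the array, of which 12899 were detected. The set was put together with earlier results of these arrays known, in which HEPH was among the genes of largest difference, so the values below are descriptions.

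Huh7 cells were sorted by flow cytometry into a population that carries CD133 on its surface and a population that does not. Total RNA of each population was measured on 1 array, and each array was deposited as RMA values (log2) and as MAS5 signals (linear intensity). These are alternative summaries of the same hybridisation and not replicates. The labels name no treatment, time or genetic change, and a single line cannot stand for other tumours. With 1 array per population, differences have no replicate error and no test. CD133+ minus CD133- is the direction of every difference.

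The RMA value of PROM1, the gene of CD133, was 10.49 in CD133+ and 5.33 in CD133- cells. Both arrays carried the plasma protein RNAs of hepatocytes: all 14 hepatocyte markers with a probe set were detected, with a median difference of -0.06. The signal ratio of 3' to 5' control probes was 1.15 and 1.24 for ACTB and 0.95 and 1.01 for GAPDH in CD133+ and CD133- cells. In this mixture of sorted cells, fewer cells with an RNA and less of that RNA per cell cannot be told apart.

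Iron crosses membranes as ferrous iron and travels in plasma as ferric iron bound to transferrin, so ferroxidases stand at the exit of cells. The liver makes transferrin and ceruloplasmin, stores iron in ferritin, and secretes hepcidin, a peptide that causes the iron exporter ferroportin to be degraded. Hepatocytes set hepcidin output by sensing transferrin through TFR2 and HFE and by BMP signals through hemojuvelin. Iron regulatory proteins bind hairpins in messenger RNAs, where they hold back translation of ferritin and ferroportin and protect the TFRC message, so RNA levels show only part of this control.

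The proximal promoters are shown because HEPH, the gene of large difference, can be set beside members whose RNA differed little. RefSeq windows on GRCh38.p14 were available for 7 members with 10 start sites, each reaching from 250 bases before to 50 after the start. Capitals mark matches to 4 motifs in the bases before the start: ATAAA on the transcript strand 40 to 20 bases upstream (a TATA-type element), and, on both strands, ACGTG (the core bound by hypoxia-inducible factors), GGCGCC (the core of a BMP response element) and TTCNNNGAA (a STAT site). Each line is written 5' to 3' on the gene's strand and ends at the base before the start.
HEPH, the most upstream start, chrX:66162611-66162670, plus strand: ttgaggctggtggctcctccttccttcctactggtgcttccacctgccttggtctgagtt
HEPH, the middle start, chrX:66164187-66164246, plus strand: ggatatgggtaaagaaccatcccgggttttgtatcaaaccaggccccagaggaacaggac
HEPH, the most downstream start, chrX:66167690-66167749, plus strand: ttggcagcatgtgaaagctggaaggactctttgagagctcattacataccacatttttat
TF, upstream start, chr3:133661938-133661997, plus strand: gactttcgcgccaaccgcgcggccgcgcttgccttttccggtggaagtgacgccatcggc
TF, downstream start, chr3:133746333-133746392, plus strand: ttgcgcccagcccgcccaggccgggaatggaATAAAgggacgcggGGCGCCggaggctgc
SLC40A1, chr2:189580787-189580846, minus strand: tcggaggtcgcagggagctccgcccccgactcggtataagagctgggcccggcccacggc
HFE, chr6:26087369-26087428, plus strand: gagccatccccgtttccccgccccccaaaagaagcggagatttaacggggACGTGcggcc
FTL, chr19:48965249-48965308, plus strand: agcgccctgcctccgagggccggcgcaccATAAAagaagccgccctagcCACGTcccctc
TFRC, chr3:196082091-196082190, minus strand: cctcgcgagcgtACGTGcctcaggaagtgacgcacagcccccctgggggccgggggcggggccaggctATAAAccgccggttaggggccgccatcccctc
HAMP, chr19:35282408-35282527, plus strand: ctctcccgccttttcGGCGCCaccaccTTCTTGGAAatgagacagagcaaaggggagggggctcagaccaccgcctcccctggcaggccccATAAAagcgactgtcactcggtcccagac

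The sequence ATAAA stood at that distance in FTL, HAMP, TFRC and the downstream TF start. It was absent there from the 3 HEPH windows and also from SLC40A1, HFE and the upstream TF start, so its absence is not particular to HEPH. Among all 35116 windows of this length, 4.45% held it there. HAMP held GGCGCC 105 bases and a STAT-type sequence 93 bases upstream of its start, found in 16.4% and 6.57% of all windows. TFRC held ACGTG 88 bases upstream, a sequence found in 18.5% of all windows, and HFE and FTL held it 10 and 11 bases upstream. GGCGCC also occurred 201 bases upstream of TFRC and 157 and 121 bases upstream of the upstream TF start, outside the stretches shown. These are matches of letters, and the arrays do not tell the start sites of a gene apart.

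The ferritin light chain window also reached the loop of its iron-responsive hairpin in the transcribed part. The stretch below is shown because FTL RNA can be read here while the control that acts through this hairpin cannot. Capitals mark CAGTGN, the loop sequence, searched on the transcript strand in the 50 bases after the start.
FTL, chr19:48965329-48965358, plus strand: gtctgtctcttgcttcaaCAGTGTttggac

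The match began at base 39 of the transcript. CAGTGN was found in 6.36% of all windows, and in HAMP, at base 24, as the other match among members.

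Of the 9 iron genes, 1 was at least 2-fold higher in CD133+ cells, 0 were at least 2-fold lower and 8 lay within 2-fold. Each gene was read from the probe set brightest by mean RMA, and detected means that the brighter array exceeded an RMA value of 4.86, the median of that quantity over probe sets. Among all detected genes 1.65% were at least 2-fold higher and 0.116% at least 2-fold lower. By MAS5 the members again gave 1 higher and 0 lower, against 4.47% and 1.71% of detected genes. At 1.5-fold by RMA the members gave 1 higher and 0 lower as well, against 3.67% and 1.01%. The rule for the members used this contrast, so nothing is read from the count. The median difference of the 9 genes was -0.05, and that of all detected genes -0.01.

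As a yardstick for technical spread, the differences of probe sets of the same gene had a pooled SD of 0.17 (log2) over 6042 genes with several probe sets above the floor. It leaves out variation between sorts, cultures and hybridisations. HEPH, CP, SLC40A1 and HAMP differed by more than this spread, and TF, TFRC, TFR2, HFE and FTL by less. Of all detected genes, 61.9% lay within it.

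**Figure D1:**
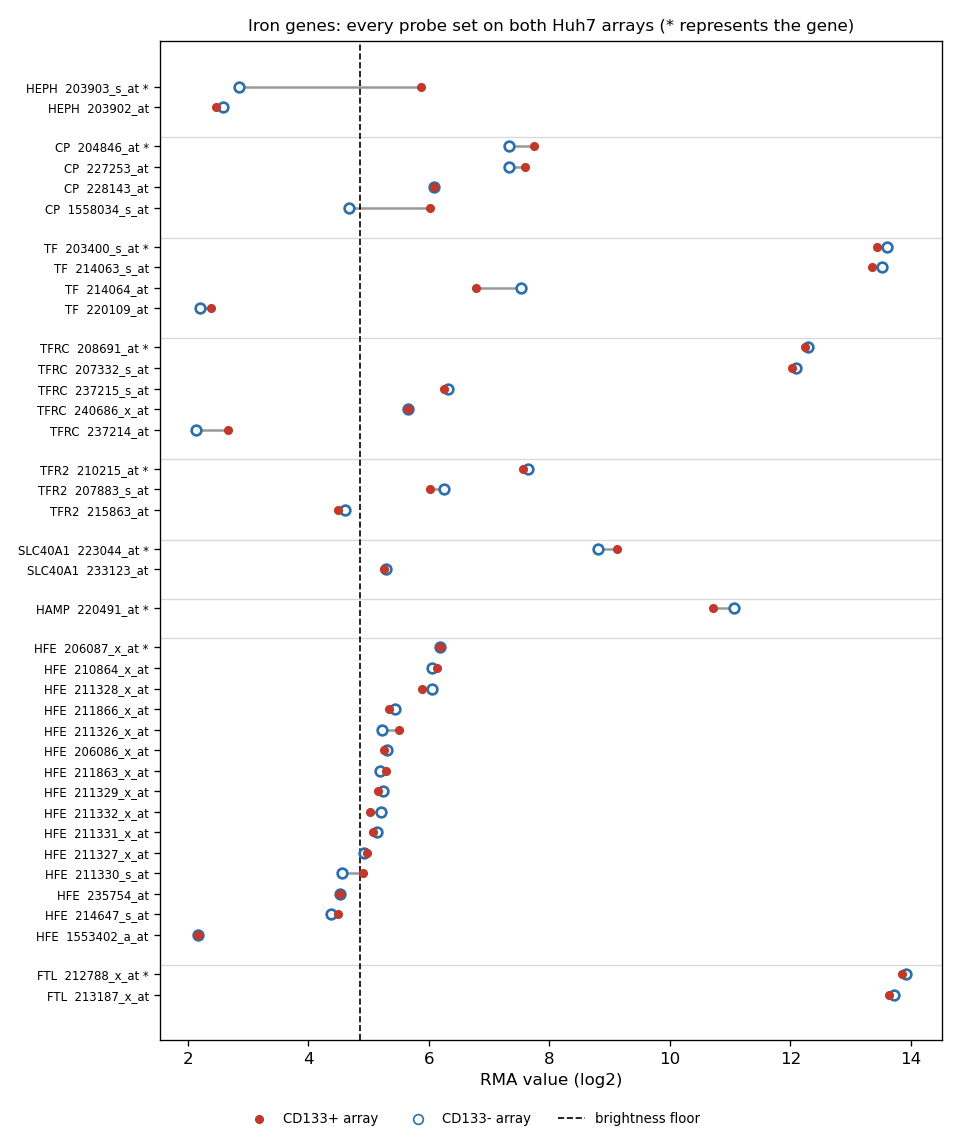
RMA values (log2, horizontal axis) of all 38 probe sets of the iron genes in CD133+ (filled) and CD133- cells (open), 1 array each; the dashed line is the brightness floor of 4.86 and an asterisk marks the probe set that represents the gene. The HEPH pair is widest, from 2.85 to 5.86, while most other pairs nearly touch. Values are compared within a probe set, not between probe sets.

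Hephaestin, the product of HEPH, is the membrane-bound ferroxidase of enterocytes, which oxidises iron as ferroportin lets it out. Probe set 203903_s_at had an RMA value of 5.86 in CD133+ cells and 2.85 in CD133- cells, with MAS5 signals of 359 and 28.0. Only the CD133+ array was above the floor. The RMA difference of 3.02 was number 12 from the top among detected genes, and 0.093% of them differed by as much in either direction. Because the CD133- value is dim, the safer statement is a bound of at least 2.01-fold by RMA and at least 3.91-fold by MAS5, each against the floor of its scale.

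The second HEPH probe set did not show this difference. Probe set 203902_at had RMA values of 2.47 and 2.58 and MAS5 signals of 25.9 and 40.6, below the floor on both arrays, so it carries no order. The HEPH difference therefore rests on 1 probe set. The suffix _s_at marks probes that can match several transcripts.

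Enterocyte markers were read beside HEPH. Their list was chosen with earlier results of these arrays known, so its shares are descriptions. Of 13 detected markers out of 15 with a probe set, 12 had a positive difference, against 45.6% of all detected genes. Beyond the spread between probe sets 10 were higher, against 19.1% of all detected genes. As measured, 3 were at least 2-fold higher, against 1.65%. The list's median was 0.38. The summed MAS5 signal of all 15 markers was 40566 in CD133+ cells and 27244 in CD133- cells. Within it, CDH17 had 9195 and 1997, and SI had 2704 and 466. SI, the brush border sucrase-isomaltase, was 6.87-fold higher, CDH17, the liver-intestine cadherin, 4.63-fold, and LCT, the lactase gene, at least 1.49-fold. The intestinal transcription factor genes CDX2 and CDX1, named here after their values were seen, differed by 0.69 and -0.04. FABP2 and ALPI, also enterocyte genes, lay below the floor on both arrays. The MAS5 signals of CDX1 and of SLC5A1, another of the detected markers, were below the MAS5 floor. The part of these markers in the HEPH difference was not tested.

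Ceruloplasmin, encoded by CP, is the secreted multicopper ferroxidase of plasma and the paralogue of hephaestin. All 4 CP probe sets were above the floor in CD133+ cells. All 4 differences were positive by both algorithms, but of unequal size. Probe set 204846_at had RMA values of 7.74 and 7.32, a difference of 0.42, and 227253_at had 7.59 and 7.34, a difference of 0.26. At this brightness such differences were not rare: 7.84% and 22.1% of probe sets within 0.5 RMA units differed by as much.

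The other CP probe sets lay on either side of these. Probe set 1558034_s_at had RMA values of 6.01 and 4.68 and MAS5 signals of 334 and 129, at least 2.22-fold higher by RMA, since its CD133- value was just below the floor. Of 7780 probe sets of like brightness, 0.63% differed by as much as its measured 1.33. Probe set 228143_at had 6.09 and 6.08, a difference of 0.01, although its MAS5 signals were 411 and 290. Of probe sets of like brightness, 93.9% differed by at least as much as 228143_at, so it showed no readable RMA difference. The remaining CP probe sets had the direction of HEPH probe set 203903_s_at. The size of the CP difference as measured ran from 0.01 to 1.33 with the probe set read.

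Ferroportin, encoded by SLC40A1, is the iron exporter that these ferroxidases serve. Probe set 223044_at had RMA values of 9.12 and 8.80 and MAS5 signals of 3267 and 2572, so it was 1.25-fold higher in CD133+ cells. Of 2623 probe sets of like brightness, 10.9% differed by at least this much. The dimmer probe set 233123_at differed by -0.03 by RMA, and by -0.79 by MAS5, with signals of 107 and 185. By RMA and the representing probe sets, the exporter and both ferroxidases were the 3 members with a positive difference; by MAS5 the same probe sets of HFE (0.11), TFRC (0.01) and FTL (0.01) were positive too.

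Hepcidin, encoded by HAMP, was read from 1 probe set. Its RMA values were 10.72 in CD133+ cells and 11.07 in CD133- cells, and its MAS5 signals 7198 and 9252. Among the representing probe sets it was lowest by RMA, at -0.35. By MAS5 HAMP differed by -0.36, and TFR2 was lower, at -0.44. Of 777 probe sets of like brightness, 6.31% differed by as much. No second probe set was paired with HAMP to compare.

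**Figure D2:**
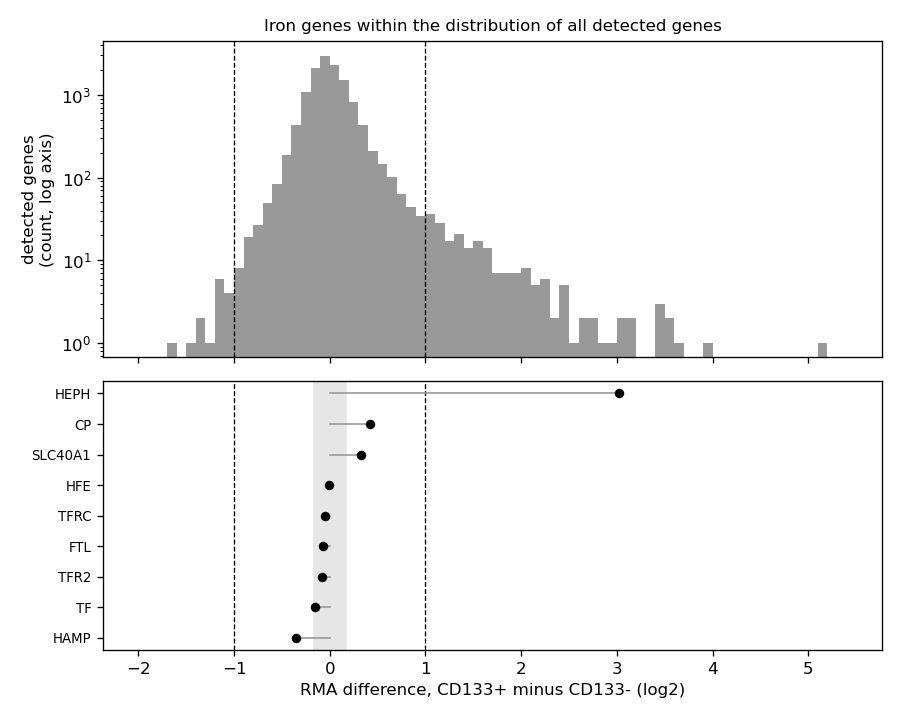
Upper panel: count of detected genes (log axis) by RMA difference, CD133+ minus CD133-, in bins of the log2 scale. Lower panel: the 9 iron genes, each by its brightest probe set, with the 2-fold lines dashed and the spread between probe sets (0.17) shaded. HEPH lies at 3.02 in the upper tail, HAMP at -0.35 is lowest, and 5 genes fall inside the shaded band.

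Transferrin, encoded by TF, is the plasma carrier of ferric iron and a major secreted liver protein. Probe set 203400_s_at had RMA values of 13.44 and 13.60 and 214063_s_at had 13.35 and 13.51, a difference of -0.16 on each. Differences are small among such bright probe sets: the median size was 0.04, and 2.09% of the 191 probe sets of like brightness differed by as much as 203400_s_at. The TF probe set 214064_at, was lower by more, with values of 6.78 and 7.53, a difference of -0.75 by RMA and -0.39 by MAS5. The last, 220109_at, was below the floor on both arrays. All 3 TF probe sets above the floor were thus lower in CD133+ cells, and MAS5 gave all 4 as lower.

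TFRC encodes transferrin receptor 1, which takes iron-loaded transferrin into cells. Probe set 208691_at had RMA values of 12.24 and 12.29, with MAS5 signals of 23951 and 23851. Probe set 207332_s_at had 12.03 and 12.09, and 237215_s_at had 6.26 and 6.31. Their RMA differences were -0.05, -0.06 and -0.05, each within the spread between probe sets. Of the probe sets as bright as 208691_at, 68.9% differed by at least as much.

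The dimmest TFRC probe sets disagreed between the algorithms. Probe set 237214_at, below the floor on both arrays, had MAS5 signals of 23.8 and 4.49, a MAS5 difference of 2.41 against an RMA difference of 0.53. Probe set 240686_x_at had the same RMA value of 5.65 on both arrays, while its MAS5 signals of 33.7 and 72.2 lay below the MAS5 floor of 91.8. Neither carries a readable difference.

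TFR2, the second transferrin receptor, senses transferrin in hepatocytes. Probe set 210215_at had RMA values of 7.57 and 7.65, and 207883_s_at had 6.02 and 6.24. Their differences were -0.08 and -0.22. The dim probe set 215863_at, at -0.12, was below the floor on both arrays by RMA and by MAS5, so it carries no order. MAS5 gave -0.44 for 210215_at, -0.23 for 207883_s_at and -0.33 for the dim 215863_at. By RMA 68.2% of probe sets as bright as 210215_at differed by at least as much, so the TFR2 difference is small on this scale.

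HFE, a relative of MHC class I molecules, partners the transferrin receptors in iron sensing. It had 15 probe sets, of which 11 are of the _x_at kind, whose probes can match unrelated transcripts. In CD133+ cells their RMA values ran from 2.17 to 6.18 with a median of 5.15, and in CD133- cells from 2.17 to 6.19 with a median of 5.21. Of the 12 above the floor, 5 were higher and 7 lower, with a median difference of -0.03 and a range from -0.18 to 0.36. The representing probe set, 206087_x_at, had values of 6.18 and 6.19. MAS5 gave 10 of the 15 as higher and 5 as lower, from -0.52 to 0.96. HFE probe sets thus scattered about no difference by RMA, and share sequence, so they are not 15 independent readings.

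FTL encodes the ferritin light chain, which with the heavy chain builds the shell that stores iron. Probe set 212788_x_at had RMA values of 13.86 and 13.93, and 213187_x_at had 13.64 and 13.72. The differences of -0.07 and -0.08 were within the spread between probe sets, and by MAS5 they were 0.01 and -0.10. Of the 98 probe sets as bright as 212788_x_at, 14.3% differed by as much. Both FTL probe sets are of the _x_at kind, which related ferritin sequences can enter.

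**Figure D3:**
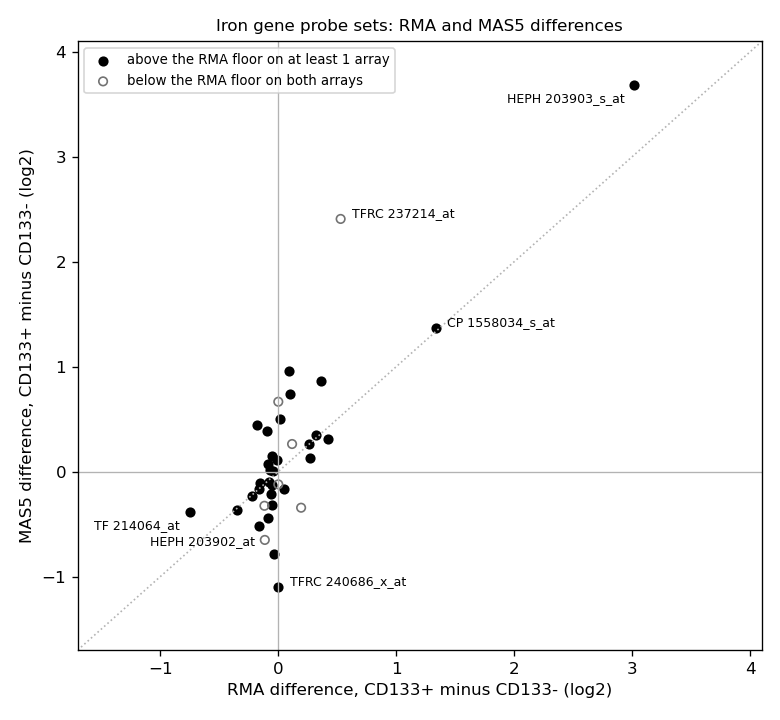
RMA difference (horizontal) against MAS5 difference (vertical), both CD133+ minus CD133- on the log2 scale, for the 38 probe sets of the iron genes; open circles were below the RMA floor on both arrays and the dotted line marks equal values. HEPH 203903_s_at (3.02 and 3.68) and CP 1558034_s_at (1.33 and 1.37) are high by both, and TFRC 237214_at, below the RMA floor, is high by MAS5 alone (2.41).

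The algorithms gave the same sign on 26 of the 38 probe sets and opposite signs on 9. On the other 3 the RMA value was equal on both arrays. Every opposite sign had an RMA difference of at most 0.19 in size, and 5 of the 9 belonged to HFE. Equal RMA values on both arrays are a property of the deposited table, where 7.70% of all probe sets have them.

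The order of the representing differences, as measured, was HEPH (3.02), CP (0.42), SLC40A1 (0.32), HFE (-0.01), TFRC (-0.05), FTL (-0.07), TFR2 (-0.08), TF (-0.16) and HAMP (-0.35). Taken at its bound of 1.01, HEPH lies 0.59 above the CP probe set in this order, and below the CP probe set 1558034_s_at as measured (1.33). CP and SLC40A1 are not separated by more than the spread of 0.17, nor are any neighbours from HFE down to TF. SLC40A1 lies 0.33 above HFE and HAMP lies 0.19 below TF, both gaps beyond the spread. That spread is of a single difference, and a gap between 2 differences has a wider one. The gap of 0.19 is therefore not a clear separation. No likeness of pattern to other genes is given, since 2 arrays hold a single difference per gene.

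Around these members, 8 lists of other genes were read, of iron biology and of the linked oxidative stress response and ferroptosis. They held 183 genes in all, of which 149 were detected. As measured, 6 of the 149 (4.03%) were at least 2-fold higher in CD133+ cells and 0 at least 2-fold lower. Among all detected genes the shares were 1.65% and 0.116%. Of the 6, AKR1B10 came from the oxidative stress list and DPP4 from the ferroptosis list. The 6 became 4 without _x_at and _s_at probe sets, where AKR1B10 and BMP4 were lost, and 4 with the floor at the 75th percentile, where CUBN and HJV were lost. Their median difference was -0.03, and 43.6% were positive, beside 45.6% of all detected genes.

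Genes of iron uptake and ferric reduction held 2 of the 6. LRP2 and CUBN encode megalin and cubilin, large endocytic receptors of resorbing epithelia that can take up transferrin among other ligands. LRP2 had RMA values of 7.75 and 6.10, a 3.15-fold difference, and its other probe set above the floor was higher by 1.40. CUBN had 5.54 and 3.93, so it was at least 1.61-fold higher. The other 11 detected genes of this list lay within 2-fold, 6 with a positive and 5 with a negative difference, and the median of all 13 was 0.06. Beyond the spread between probe sets 6 of the 13 were higher, against 19.1% of all detected genes, and 1 lower. Those higher included LCN2 (0.57), SLC39A8 (0.56, its other probe sets from -0.09 to 0.36) and MELTF (0.41). SLC11A2, the ferrous iron importer DMT1, differed by 0.03, the endosomal ferrireductase STEAP3 by -0.21 and LRP1 by -0.13. CYBRD1, the duodenal ferrireductase, was below the floor on both arrays, with values of 2.57 and 2.39.

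Hepcidin control genes held another 2, both on the BMP side. HJV, hemojuvelin, the BMP co-receptor that raises hepcidin in hepatocytes, had RMA values of 6.57 and 5.45 and MAS5 signals of 318 and 156, a 2.16-fold difference. BMP4, a BMP ligand, had 7.28 and 6.02, a 2.40-fold difference. BMP2, a ligand that acts on hepcidin in liver, differed by 0.79, with values of 9.44 and 8.65, and its other probe set by 0.72. HAMP itself differed by -0.35, the opposite sign.

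Some genes that respond to BMP signals were chosen here after their values were seen. ID1 differed by 0.08, SMAD7 by 0.01 and SMAD6 by 0.00, and ID3 by 0.30, which is beyond the spread between probe sets. TMPRSS6, the protease that cleaves hemojuvelin, differed by -0.06 by RMA and by -0.67 by MAS5, with signals of 258 and 409. STAT3, which relays inflammatory signals to hepcidin, differed by -0.18. BMP6 and IL6, further inducers of hepcidin, were below the floor on both arrays. The lowest of the 29 detected members were FURIN (-0.33), a convertase that cleaves prohepcidin and hemojuvelin, and the activin receptor gene ACVR2B (-0.33), whose other probe sets above the floor were higher. Of the 29, 11 were higher and 17 lower, with a median of -0.04.

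Post-transcriptional control genes were all within 2-fold. ACO1, which encodes iron regulatory protein 1, had RMA values of 8.78 and 8.83. FBXL5, the iron-sensing adaptor that marks iron regulatory protein 2 for degradation, had 8.41 and 8.56, and NCOA4, the receptor for the autophagy of ferritin, had 11.28 and 11.46. HERC2, a ubiquitin ligase acting on NCOA4, differed by -0.14. These regulators differed by no more than about the spread between probe sets.

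Among the iron chaperones of the poly(rC)-binding family, PCBP1 differed by -0.12, PCBP2 by -0.03, PCBP3 by 0.11 and PCBP4 by 0.20. NDFIP1, an adaptor that promotes removal of DMT1, differed by -0.07. The RNA-decay factors ZFP36 and ZFP36L1 differed by 0.24 and -0.36. Of these 11 genes 3 were higher and 8 lower, with a median of -0.07.

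Copper handling and oxidase genes had none at 2-fold, although ferroxidases need copper. The copper pump ATP7B had the same RMA value, 7.94, on both arrays. The metal-binding metallothioneins MT1X and MT2A were lowest, at -0.88 and -0.87. LOX, a copper-dependent matrix oxidase, was highest at 0.58, with its other probe sets at 0.84 and 0.87, and APP, the amyloid precursor, followed at 0.44, with its other probe sets from -0.11 to 0.19. Among the 14 detected here, 5 differences were positive and 8 negative, with a median of -0.08.

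Heme genes went evenly both ways, 12 higher and 12 lower of 24 detected, with a median of 0.02. BLVRA, biliverdin reductase A, was highest at 0.52, and its other probe sets were higher by 0.63 and 0.65. FLVCR1, a heme exporter at the cell surface, differed by 0.41 and HMOX1, heme oxygenase 1, by 0.27. HP, the haemoglobin scavenger haptoglobin made by liver, was lowest at -0.43, with RMA values of 9.12 and 9.55, and CLPX differed by -0.25.

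Mitochondrial iron and iron-sulfur cluster genes had a median of -0.11 and none at 2-fold. Of 27 detected genes 11 were higher and 16 lower, 2 of the former and 7 of the latter beyond the spread between probe sets. Of all detected genes, 19.1% were higher beyond that spread and 61.9% lay within it. SLC25A37, the mitochondrial iron importer mitoferrin 1, was lowest at -0.51, although its 6 other probe sets above the floor ran from -0.34 to 0.20. ISCU, the cluster scaffold, differed by -0.22. FDX1, a ferredoxin, was highest at 0.31, followed by CISD1, an iron-sulfur protein of the outer membrane, at 0.17.

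**Figure D4:**
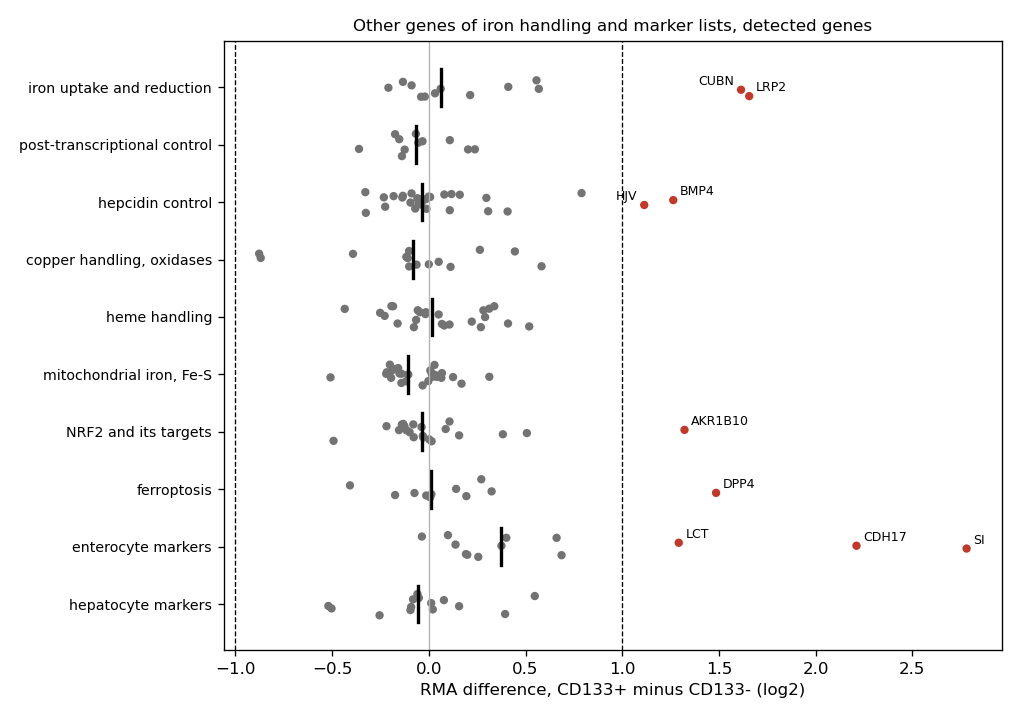
RMA difference, CD133+ minus CD133- (log2), of the detected genes of the 8 iron lists and of enterocyte and hepatocyte markers; each point is a gene, the black bar is the list's median, dashed lines mark 2-fold and coloured points lie at or beyond it. Points past the line are LRP2, CUBN, HJV, BMP4, AKR1B10 (oxidative stress list, NRF2) and DPP4 (ferroptosis list). Among enterocyte markers they are SI, CDH17 and LCT. The medians of the 8 lists run from -0.11 to 0.06.

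Blood and macrophage markers, which could bring iron genes of their own, were read as well. CD163, the macrophage receptor for haptoglobin-haemoglobin complexes, had RMA values of 3.51 and 3.46, and PTPRC, the pan-leukocyte gene, 2.32 and 2.43, all below the floor. Of the macrophage list 5 of 13 genes were detected. The summed MAS5 signals of all 13 were 13287 in CD133+ and 13997 in CD133- cells. Nearly all of this came from LYZ, the lysozyme gene, at an RMA value of 11.11 on both arrays. The other detected genes were AIF1 (RMA values of 6.54 and 6.39), CD14 (5.66 and 5.91), MARCO (5.67 and 5.57) and CSF1R (4.95 and 4.81). Of the erythroid list 5 of 8 genes were detected, with differences from -0.07 to 0.12. The summed signals of all 8 were 820 and 890.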

How the data were processed

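One array each of CD133+ and CD133- Huh7 cells was analysed. The authors deposited MAS5 values, which are linear intensity, and RMA values, which are log2, per the labels. The tools MAS5, GCOS and RMA come from the submitters' processing notes, which give no version. Which arrays were normalised together is not given in the sources used here. The deposited MAS5 columns share a trimmed mean of 500.1, and RMA removes global shifts, so a change in total RNA cannot be seen. Of 54675 probe sets, 41097 had 1 gene symbol, and symbols were updated through the Entrez number (41043 matched GRCh38.p14).

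Differences were computed with Python 3.11.15 and pandas 2.3.3 and tested on simulated data. A call needed a 2-fold difference and the brighter value above the floor (RMA 4.86, MAS5 91.8). With no replicates, no p-values were computed, and the number of arrays limits precision. The members, lists and rules were chosen with earlier results of these data known. Named genes were PROM1, all members, the detected post-transcriptional control genes, and, for each other iron list, calls and the 2 highest and 2 lowest differences. Marker lists gave their calls. Other genes were named for their role after their values were seen. The alternatives were MAS5, other probe set rules, floors, fold, centring and symbols.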

Additional observations from a re-analysis of the deposited data

How the results depend on the processing

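Among the iron genes, the HEPH call depended on processing. The number of iron genes at least 2-fold higher was 1 by MAS5, without a floor, at 1.5-fold, after centring and with the platform's symbols. It was 0 with the mean over all probe sets, 0 without _x_at and _s_at probe sets and 0 with the floor at the 75th percentile. In each of these settings HEPH was no longer detected. With the mean over all probe sets the HEPH difference was still 1.45, but its mean value lay below the floor. Its difference reversed to -0.11 without _x_at and _s_at probe sets, since the dim probe set then stands for the gene. No iron gene was called lower in any of the 8 alternatives. The other iron lists had 6 genes higher, and the same 6 by MAS5, with the mean over probe sets, without a floor, after centring and with the platform's symbols. They had 4 without _x_at and _s_at probe sets (AKR1B10 and BMP4 lost), 4 with the floor at the 75th percentile (CUBN and HJV lost) and 7 at 1.5-fold (BMP2 added), where MT1X and MT2A were lower. Of 251 values recomputed under an alternative, 237 stayed within the spread between probe sets or within 1.5 times the count, and 13 moved further. Changing the floor or the fold cannot alter the difference of a single gene, and centring shifts all genes alike. A change of sign within the spread also counted as staying. Many of the 237 were thus fixed in advance, and the count does not measure robustness. By MAS5, 548 genes of the array were higher and 209 lower (72.4% higher), against 213 and 15 (93.4%) by RMA. Signal over background limits HEPH, CUBN and the dim probe sets of TFRC and HFE.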

Other observations

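Genes that respond to oxidative stress, of which both ferritin chains are known members, had 1 of 21 detected genes at least 2-fold higher. The share over all detected genes was 1.65%. Beyond the spread between probe sets 3 of the 21 were higher and 2 lower. Of all detected genes, 19.1% were higher beyond that spread and 61.9% lay within it. AKR1B10, an aldo-keto reductase, had RMA values of 7.54 in CD133+ cells and 6.22 in CD133- cells, a 2.50-fold difference, with MAS5 signals of 1019 and 322. ABCC2, an export pump of the canalicular membrane, differed by 0.51, while AKR1C1 and GCLC were lowest at -0.49 and -0.22. NFE2L2, the gene of the transcription factor NRF2, differed by -0.11 and NQO1, a common target, by 0.11. Of the 21, 8 differences were positive and 13 negative, with a median of -0.04.

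Genes of ferroptosis, the iron-dependent form of cell death, had a median of 0.01 over 11 detected members. DPP4, a surface peptidase, had RMA values of 9.18 and 7.69, a 2.80-fold difference, and its other probe sets above the floor were higher by 1.42 and 1.49. GPX4, the peroxidase that guards membrane lipids, differed by 0.14 and AIFM2, a second guard, by 0.32. ACSL4, which loads membranes with oxidisable lipids, was lowest at -0.41, and its other probe sets were lower by 0.49 and 0.74.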
